A study of Mus musculus with 15 samples.

Results

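Expression of 10 genes of the hypoxia-inducible factor (HIF) system was followed through 15 RNA-seq libraries of 6DT1, a line of mammary tumour cells from mice of the FVB/N1 strain. They were taken by symbol from the deposited count table of 55341 genes: the oxygen-regulated HIF subunits Hif1a and Epas1, the prolyl hydroxylases Egln1 and Egln3, and 6 genes known to be induced by hypoxia (Vegfa, Adm, Ndrg1, Kdm3a, Bnip3 and Ankrd37). All 10 were in the table, and 9 had enough counts to be tested among 13085 genes. Adm did not. The 4 groups were wild-type cells left untreated (4 libraries), wild-type cells given 1 µM hydrogen peroxide (H2O2; 4), Clic4-knockout cells left untreated (4) and Clic4-knockout cells given H2O2 (3), with RNA taken after 24 h. No group was placed under low oxygen by the labels. The labels do not say how many knockout clones were used or whether replicates were separate cultures, so p-values measure the spread between these libraries, which may be technical.

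HIF is a dimer of an oxygen-regulated alpha subunit and the constant partner Arnt. In oxygenated cells prolyl hydroxylases mark the alpha subunit, the von Hippel-Lindau ubiquitin ligase removes it, and its activity is therefore set largely at the protein level, which RNA does not measure. When oxygen falls, or when the hydroxylases are inhibited, HIF accumulates and induces genes of glucose uptake, glycolysis, mitophagy and vessel growth, including Egln3 and, in many cells, Egln1, which act as feedback. Tumours use this programme widely, and mammary cancers are among them.

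HIF binds the short cores ACGTG and GCGTG, and both were searched on both strands in the RefSeq promoter windows of build GRCm38.p6, from 250 bases before to 50 after an annotated start. Windows were found for 8 members (11 windows, as Kdm3a has 3 and Vegfa 2), with none for Ndrg1 and Epas1. A core stood in 8 of the 11 windows, while 43.8% of all 32851 windows in the table held one. Each of the 8 members had a core in at least 1 window, and members with several windows had more chances of one. The Vegfa window at the 5′ end of the gene (46032328 to 46032627) held 0, and its 2 cores stood in the window inside the gene (46025114 to 46025413). For Kdm3a 1 window held a core and the others held 0. The windows of Hif1a and Ankrd37 also lay inside the annotated span of the gene and not at its 5′ end. The windows of 4 members are shown: Hif1a, Egln1 and Egln3, whose untreated libraries did not overlap between the genotypes, and Bnip3, which held the most cores of the members. Sequences run 5′ to 3′ along the gene, with the cores or their reverse complements in capitals.
Hif1a (chr12:73907617-73907916, plus strand): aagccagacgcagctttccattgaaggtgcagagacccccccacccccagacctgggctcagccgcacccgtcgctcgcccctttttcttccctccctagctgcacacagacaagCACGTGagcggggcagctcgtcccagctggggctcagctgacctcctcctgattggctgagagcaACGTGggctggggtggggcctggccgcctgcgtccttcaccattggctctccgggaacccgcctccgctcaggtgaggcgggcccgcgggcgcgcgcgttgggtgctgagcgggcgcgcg
Egln1 (chr8:124949205-124949504, minus strand): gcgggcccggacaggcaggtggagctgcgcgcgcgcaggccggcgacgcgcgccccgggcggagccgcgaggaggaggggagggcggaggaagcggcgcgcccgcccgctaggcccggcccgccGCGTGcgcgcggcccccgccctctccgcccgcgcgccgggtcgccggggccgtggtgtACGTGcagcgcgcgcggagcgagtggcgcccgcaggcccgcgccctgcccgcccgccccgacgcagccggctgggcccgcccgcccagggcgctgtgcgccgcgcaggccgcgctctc
Egln3 (chr12:54203825-54204124, minus strand): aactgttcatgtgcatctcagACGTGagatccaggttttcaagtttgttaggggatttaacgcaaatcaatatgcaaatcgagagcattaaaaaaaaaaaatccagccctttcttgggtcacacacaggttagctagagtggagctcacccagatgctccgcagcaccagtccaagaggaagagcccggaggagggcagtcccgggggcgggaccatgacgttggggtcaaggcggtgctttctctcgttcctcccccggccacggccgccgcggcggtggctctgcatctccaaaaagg
Bnip3 (chr7:138909457-138909756, minus strand): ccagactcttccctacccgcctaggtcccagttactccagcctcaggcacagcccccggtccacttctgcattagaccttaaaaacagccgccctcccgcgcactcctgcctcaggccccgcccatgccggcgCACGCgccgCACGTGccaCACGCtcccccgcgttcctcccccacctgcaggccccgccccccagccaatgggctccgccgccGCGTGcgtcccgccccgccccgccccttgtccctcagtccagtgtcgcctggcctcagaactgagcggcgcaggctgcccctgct
Bnip3 held 5 matches, and 1.66% of all windows held 5 or more. Hif1a held 3, Egln1 held 2 and Egln3 held 1, at 229 bases before the start. In Hif1a and in Bnip3 a pair of matches fell on the palindrome CACGTG, which counts on both strands and is also the E-box bound by MYC and related factors, and which 7.15% of all windows held. A match is a description of the letters and not a measured site. The window with the most matches belonged to a gene that was not called without treatment, and a window with 1 match to the member with the largest increase.

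The libraries held 12306140 to 16026276 counts. Clic4, which encodes a chloride intracellular channel protein, was read first as the check of the labels: it stood at 315.9 to 326.7 normalised CPM (counts scaled to library size with TMM factors) in wild-type libraries without treatment and 64.16 to 75.05 in the corresponding knockout libraries, lower but not absent. Untreated wild-type replicate 9, whose genotype field says knockout against its title, had the wild-type level of Clic4. It also stood apart in markers of blood cells: it held 288 counts of the macrophage lysozyme gene Lyz2 against at most 5 in any other library, 67 of the leukocyte gene Ptprc against at most 1, and 13 of the T-cell gene Cd3e against 0. Cd68, also on that list of 8 genes, was at 265 to 430 CPM everywhere and made up nearly all of its summed level, which was 386 to 430 CPM in the untreated wild type and 268 to 305 in the untreated knockout. Of 6 luminal mammary markers, Krt8 was at 610 to 681 CPM in every library, whereas Epcam had at most 2 counts in any group and Cldn7 had 0. The other 3 differed by genotype, in both directions. Without treatment Krt18 was at 332 to 336 CPM in wild type and 147 to 158 in the knockout, Krt19 at 51.3 to 60.3 and 148 to 161, and Elf3 at 0 and 2.54 to 5.9. Their part in the results for the members was not tested. Basal markers summed to at most 0.549 CPM. Endothelial markers summed to at most 3.51 CPM. Fibroblast markers summed to 11.3 to 22 CPM, nearly all of it Pdgfra. Pdgfra was at 18.2 to 21 CPM in the untreated wild type and 10.1 to 12.9 in the untreated knockout.

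The levels of the members were compared per kilobase, over the union of the exons of each gene in GENCODE M21. In untreated wild-type cells Bnip3 was the most abundant (111 ± 8.32 CPM per kb, SD, n = 4), followed by Ndrg1 (82.5 ± 2.05) and Hif1a (40.3 ± 0.941). Egln1 (34.5 ± 2.53), Egln3 (30 ± 1.74) and Vegfa (28.2 ± 0.798) came next, and the libraries of Egln3 and Vegfa overlapped on this scale. Kdm3a (19.3 ± 0.762), Ankrd37 (5.74 ± 0.586) and Epas1 (2.96 ± 0.222) were lower. In untreated knockout cells Hif1a moved from the third to the sixth place (23.6 ± 2.36 CPM per kb, n = 4) and Egln3 to the third (40.5 ± 3.77).

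**Figure D1:**
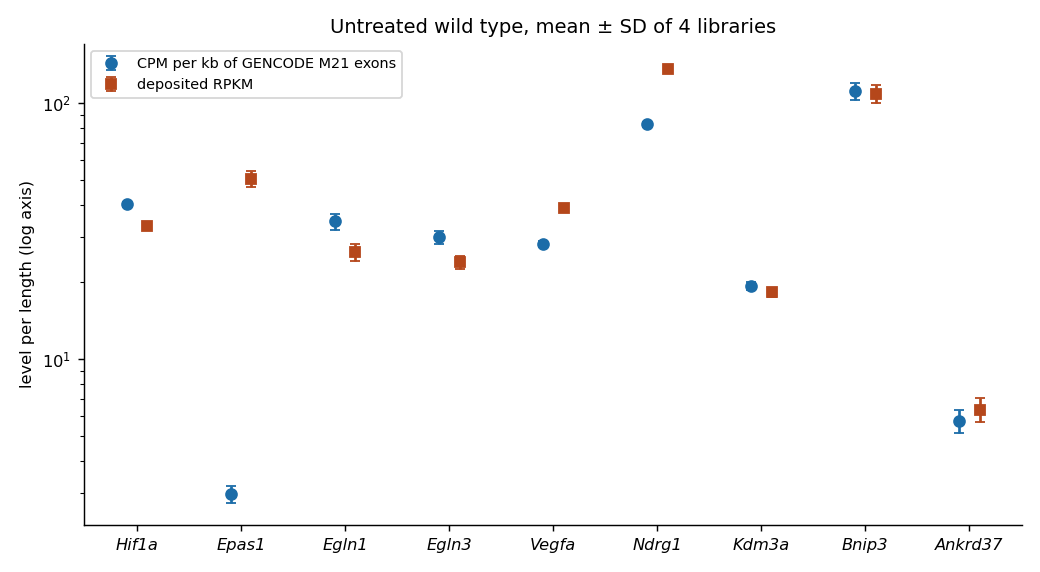
Level per length of the 9 tested members in untreated wild-type cells (mean ± SD of 4 libraries, log axis), as CPM per kb of GENCODE M21 exons (circles) and as deposited RPKM (squares). The scales differ most for Epas1, at 2.96 on the first and 50.5 on the second, and less for the others, such as Ndrg1 at 82.5 and 136.

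The deposited RPKM values (scaled by the authors to gene length and sequencing depth) put Ndrg1 (136 RPKM) above Bnip3 (109) and Vegfa (38.8) above Hif1a, and moved Epas1 from the ninth place to the third. Epas1, which encodes the other oxygen-regulated alpha subunit, stood at 50.5 ± 3.66 RPKM, above Hif1a at 33.2 ± 0.74 (n = 4). Counts and RPKM together imply a length of 330 bases for Epas1, whereas its exons span 5590 bases and its shorter annotated transcript has 332. Over 10209 well-counted genes the implied length was a median of 0.995 times the exon length, and the Epas1 ratio of 0.0591 lay at the percentile 0.0392. On exon length, Hif1a mRNA exceeded Epas1 mRNA 13.7 ± 0.933-fold in wild-type cells and 9.9 ± 1.92-fold in knockout cells, both untreated (n = 4 each). Fold changes of Epas1 between groups do not depend on the length used.

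Which members differed by genotype in untreated cells? Hif1a was the largest difference and was lower in the knockout, with Egln1 and Epas1 also lower. Egln3, Vegfa and Ndrg1 were higher, and Kdm3a, Bnip3 and Ankrd37 were not called. The 9 tested members thus split into 3 higher and 3 lower. Calls were common in this comparison: 33.9% of all tested genes were higher and 32.9% lower (edgeR's quasi-likelihood test, Benjamini-Hochberg adjusted p under 0.05), and a count of 6 in 9 is close to that 66.8% in all. The median log2 fold change was -0.01 over the members and 0.00 over all genes. No member reached 2-fold. In bulk RNA a lower level in every cell and fewer cells with the transcript cannot be told apart.

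**Figure D2:**
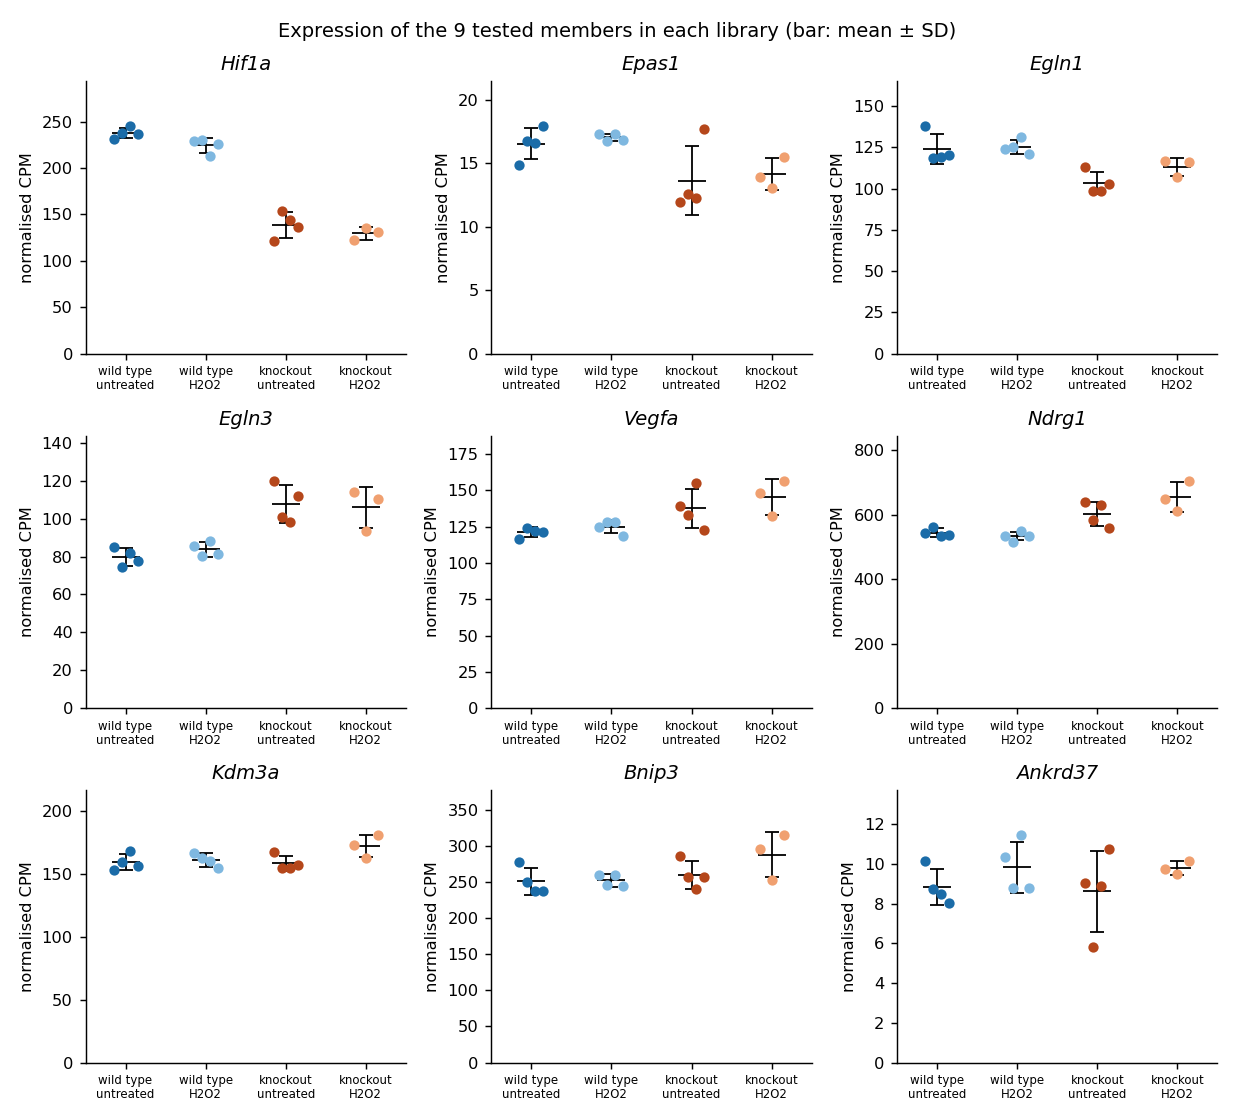
Normalised CPM of the 9 tested members in each library (points), by group, with the mean and SD (bars). Hif1a was at 231.3 to 244.7 in wild-type and 120.9 to 154 in knockout libraries without H2O2, with no overlap, while the groups of Kdm3a, Bnip3 and Ankrd37 overlapped.

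Among the alpha subunits, Hif1a (chromosome 12, 73901375 to 73947530, plus strand, mm10) stood at 231.3, 237.9, 244.7 and 236.1 CPM in untreated wild-type replicates 9 to 12. It stood at 120.9, 154, 143.8 and 136.8 CPM in knockout replicates 1 to 4. Every knockout library lay below every wild-type library, as for 28.5% of all tested genes. Group means were 237.5 ± 5.546 and 138.9 ± 13.92 CPM (n = 4 each). The log2 fold change was -0.77 (SE 0.0516, adjusted p 2.37e-12), and -0.83 to -0.71 with any 1 of these 8 libraries left out. An antisense gene, Gm15283, and a gene on the same strand that runs past its end, Gm49321, overlap Hif1a. They held 128 and 24 counts over all 15 libraries, against 8148 of Hif1a in the 4 untreated knockout libraries alone.

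Epas1 (chromosome 17, 86753700 to 86833410, plus strand) was at 14.92, 16.79, 16.63 and 17.92 CPM in untreated wild-type libraries. In the knockout it was at 11.95, 12.6, 12.28 and 17.69 CPM. Knockout replicates 1, 2 and 3 lay below all wild-type libraries and replicate 4 lay among them. The log2 fold change was -0.28 (SE 0.0971, adjusted p 0.0131). It was -0.43 (adjusted p 3.56e-05) without knockout replicate 4, and -0.22 (adjusted p 0.0569) without knockout replicate 1, which ended the call.

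The hydroxylases moved in opposite directions. Egln1, the main oxygen sensor of most cells (chromosome 8, 124908587 to 124949324, minus strand), was at 137.7, 118.7, 119.4 and 120.6 CPM in untreated wild type and at 113.2, 98.65, 98.8 and 102.8 in the knockout. The groups did not overlap, with log2 -0.27 (SE 0.0496, adjusted p 3.50e-05). Egln3, the isoform most strongly induced by HIF (chromosome 12, 54178981 to 54203860, minus strand), was at 84.99, 74.46, 81.88 and 77.63 CPM in wild type and at 119.9, 101, 98.17 and 111.9 in the knockout. These groups did not overlap either, as for 29.9% of all tested genes on the higher side, with log2 0.43 (SE 0.0679, adjusted p 2.07e-05). Per length, the ratio of Egln1 to Egln3 mRNA was 1.15 ± 0.0525 in the wild-type libraries and 0.712 ± 0.0279 in the knockout libraries without H2O2, so that the more abundant of the pair differed between the genotypes on this scale. Without replicate 9, whose Egln1 was the highest of its group, the Egln1 difference was log2 -0.21 (adjusted p 0.000289).

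Of the secreted factors, Vegfa, the growth factor that drives vessel sprouting (chromosome 17, 46016993 to 46032369, minus strand), was at 116.2, 124.3, 122.3 and 121.3 CPM in untreated wild type. It was at 139.5, 133.1, 154.9 and 122.9 CPM in the knockout. Of the 4 knockout libraries 3 lay above all wild-type ones. The log2 fold change was 0.19 (SE 0.0578, adjusted p 0.00768), and 0.12 (adjusted p 0.0422) without knockout replicate 3. Adm, which encodes the vasodilator peptide adrenomedullin (chromosome 7, 110627661 to 110629820, plus strand), held 10 counts in the untreated wild-type libraries together, 5 of them in replicate 9. It held 3 in treated wild type, 5 in untreated knockout and 1 in treated knockout. A count of 0 in 1 library allows up to 0.187 to 0.244 CPM at these depths (3 counts, counting error only), so no difference in Adm could be read.

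Among the remaining targets, Ndrg1, a stress-response gene linked to differentiation (chromosome 15, 66929318 to 66969640, minus strand), was at 542.9, 563.5, 533.4 and 536.5 CPM in untreated wild type and at 638.6, 583.7, 629 and 558.4 in the knockout. Knockout replicate 4 fell among the wild-type values, and the log2 fold change was 0.15 (SE 0.0429, adjusted p 0.00366). Kdm3a, a histone H3 demethylase (chromosome 6, 71588972 to 71632990, minus strand), averaged 159 ± 6.266 CPM in wild type and 158.2 ± 6.078 in the knockout (log2 -0.01, 95% interval -0.09 to 0.08, adjusted p 0.878). Bnip3, a mitophagy receptor of the outer mitochondrial membrane (chromosome 7, 138890836 to 138909519, minus strand), averaged 250.8 ± 18.85 and 259.9 ± 19.39 CPM (log2 0.05, interval -0.09 to 0.19, adjusted p 0.527). Ankrd37, an ankyrin repeat protein (chromosome 8, 45996902 to 46005707, minus strand), averaged 8.841 ± 0.9015 and 8.617 ± 2.051 CPM (log2 -0.04, interval -0.31 to 0.24, adjusted p 0.828). For these 3 genes the groups overlapped. The end of Ankrd37 overlaps that of Ufsp2 on the other strand, a gene at 48 CPM, and since no counting strand is given in the sources used here some reads may belong to either.

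**Figure D3:**
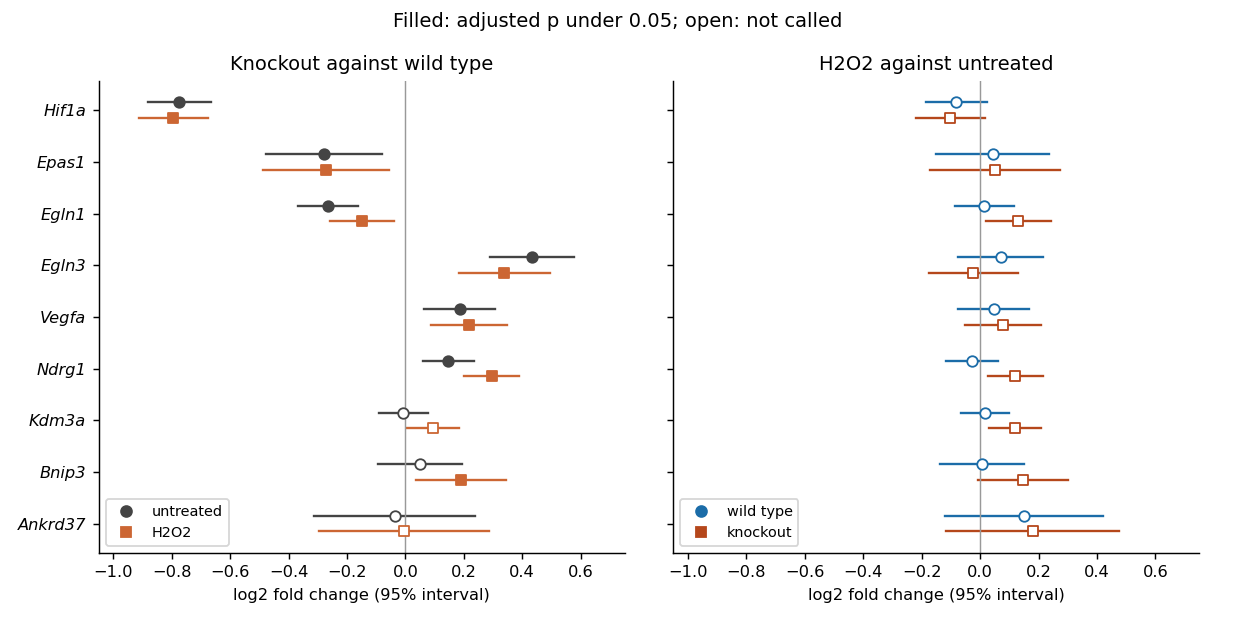
Log2 fold changes of the 9 tested members with 95% intervals, for knockout against wild type (left: untreated, circles; H2O2, squares) and H2O2 against untreated (right: wild type, circles; knockout, squares). Filled symbols passed adjusted p under 0.05: 6 untreated and 7 treated on the left, with Hif1a lowest in both, and 0 on the right.

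Under H2O2 the same genotype comparison was made with other libraries, 3 of the knockout and 4 of the wild type. Hif1a, Egln1 and Epas1 were lower again and Egln3, Vegfa and Ndrg1 higher again, and Bnip3 was called in addition. That made 4 members higher and 3 lower of 9, beside 33% and 32.4% of all tested genes (65.4% either way). The median log2 was 0.10 over the members and 0.00 over all genes.

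Hif1a was at 229.1, 230.3, 213 and 225.4 CPM in treated wild-type replicates 13 to 16 and at 122.1, 135.7 and 130.7 in treated knockout replicates 5, 7 and 8. The groups stood clear of each other, as for 33% of all tested genes on the lower side, and log2 was -0.79 (SE 0.0569, adjusted p 1.08e-11). Egln3 was at 85.66, 80.12, 88.04 and 81.18 CPM in treated wild type and at 114, 93.73 and 110.2 in treated knockout (log2 0.34, SE 0.0732, adjusted p 0.000554). Ndrg1 was at 534.5, 516.5, 548.7 and 535.2 CPM against 649.9, 610.9 and 704.9 (log2 0.30, SE 0.0461, adjusted p 2.48e-06). Vegfa was at 124.9, 128.1, 128.1 and 118.7 CPM against 147.9, 132.2 and 156.5 (log2 0.22, SE 0.0622, adjusted p 0.00423). In all 3 of these genes every treated knockout library lay above every treated wild-type library, as for 33.4% of all tested genes.

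The calls of the smaller differences under H2O2 were lost when some single libraries were left out, with folds that in part hardly moved. Egln1 averaged 125.3 ± 4.304 CPM in treated wild type (n = 4) and 113.1 ± 5.413 in treated knockout (n = 3; log2 -0.15, adjusted p 0.0167), and lost its call without knockout replicate 7 (log2 -0.11, adjusted p 0.124) or wild-type replicate 15 (log2 -0.13, adjusted p 0.0548). Epas1 averaged 17.07 ± 0.2654 and 14.18 ± 1.264 CPM (log2 -0.27, adjusted p 0.026), with the call lost without knockout replicate 5 (log2 -0.26, adjusted p 0.07) or 7 (log2 -0.21, adjusted p 0.131). For Egln1 and Epas1 every treated knockout library lay below every treated wild-type library, as for 33% of all tested genes. With knockout replicate 7 left out, 1 member remained called lower, Hif1a, and 5 were called higher. That fit called 3999 lower and 4094 higher of 13285 genes tested in it. Bnip3 averaged 252.2 ± 8.38 and 287.9 ± 31.25 CPM (log2 0.19, SE 0.0726, adjusted p 0.031). Its groups overlapped, and its call was lost without knockout replicate 5 (log2 0.17, adjusted p 0.0995) or 8 (log2 0.12, adjusted p 0.153), or when wild-type replicate 14 (log2 0.18, adjusted p 0.0688) or replicate 16 (log2 0.17, adjusted p 0.0698) was left out. Scaling by library totals (adjusted p 0.062), no filter on low counts (0.0952), limma on RPKM (0.0631) and a fit of these 2 groups alone (0.0528) ended it too. Kdm3a (log2 0.10, adjusted p 0.0581) and Ankrd37 (log2 -0.01, adjusted p 0.977) were not called, and Kdm3a passed without knockout replicate 7 (adjusted p 0.0182), without wild-type replicate 13 (adjusted p 0.0406) and in the fit of 2 groups (adjusted p 0.0347).

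Did H2O2 change these genes? By edgeR's quasi-likelihood test 0 of the 9 members was called in wild-type cells, where 0.0153% of all tested genes were called, and 0 in knockout cells, where 0.0535% were. DESeq2 and limma also called 0 members in either genotype. In wild type 0 members had an unadjusted p under 0.05, against 6.47% of all genes. The fitted changes there lay between log2 -0.08 for Hif1a (95% interval -0.19 to 0.02) and 0.15 for Ankrd37 (interval -0.12 to 0.42). In Hif1a the 4 treated libraries lay below the 4 untreated ones, as for 1.96% of all tested genes, at 213 to 230.3 against 231.3 to 244.7 CPM, although its adjusted p was 0.835. No other member separated by treatment in wild type, where 1.85% of all tested genes did so on the higher side.

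In knockout cells 3 members had an unadjusted p under 0.05, against 7.96% of all genes: Kdm3a (log2 0.12, interval 0.03 to 0.21, adjusted p 0.469), Ndrg1 (log2 0.12, interval 0.03 to 0.22, adjusted p 0.499) and Egln1 (log2 0.13, interval 0.02 to 0.24, adjusted p 0.54). These comparisons use 3 treated libraries. The groups overlapped for all 9 members, while 3.53% of all tested genes separated on the higher and 4.18% on the lower side. Kdm3a was at 167.2, 154.4, 154.6 and 156.6 CPM without and 172.8, 162.5 and 180.3 CPM with H2O2. The intervals of all 9 members excluded a 2-fold change in both genotypes. The difference between the genotypes in their H2O2 effect (interaction) was called for 0 of 9 members and for 0% of all tested genes, with 1 member at an unadjusted p under 0.05, Ndrg1 (log2 0.15, interval 0.02 to 0.28, adjusted p 0.797), against 6.18% of all genes. With DESeq2 and limma that count of members called was 0 as well.

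**Figure D4:**
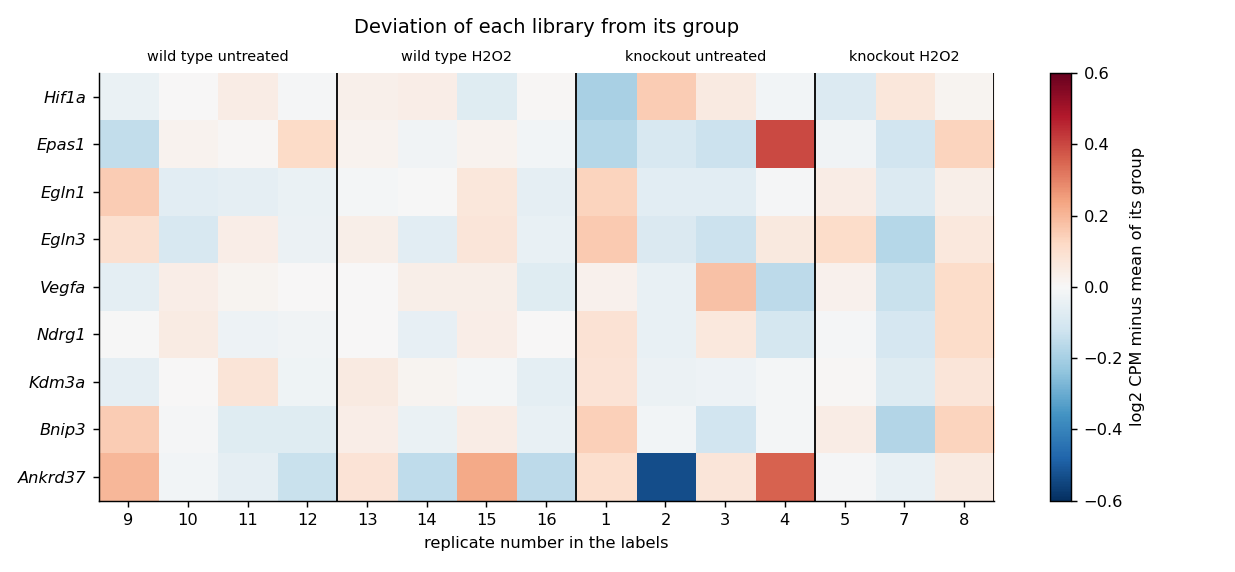
Log2 CPM of each member in each library minus the mean of its group (red above, blue below), libraries in columns by group. Treated knockout replicate 7 was the lowest of its group for 8 of 9 members, and untreated knockout replicate 1 the highest of its group for 5.

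In some libraries most members deviated from the group mean in the same direction. Treated knockout replicate 8 was above its group mean for all 9 tested members and the highest of 3 for 6. Replicate 7 was the lowest for 8 and the highest for the other, Hif1a. Of 79 other genes of the HIF pathway lists with a mean of at least 5 CPM, 59 were above the group mean in replicate 8 and 14 in replicate 7. Untreated knockout replicate 1 was the highest of 4 for 5 members and the lowest for 2, Hif1a and Epas1, with 58 of the 79 other genes above the mean. Among treated wild-type libraries, replicate 15 was the highest for 6 members and the lowest for Hif1a. The untreated wild-type libraries were mixed in the members, with 4, 5, 5 and 2 of the 9 above the mean in replicates 9 to 12. Of the 79 other genes, 54, 49, 25 and 36 were above it there. Untreated knockout replicates 3 and 4 were mixed too, with 4 and 3 members above. In untreated knockout replicate 2, 1 member and 24 of the 79 were above the mean. In treated wild-type replicate 13, 8 members and 35 of the 79 were. These counts were not made over all tested genes, so they do not show whether the pattern is particular to the pathway. What sets single libraries apart was not tested. In untreated knockout cells the coefficient of variation was 23.8% for Ankrd37, the tested member with the fewest counts, and 3.84% for Kdm3a.

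The wider pathway was read from 5 lists of 114 genes, among them all 10 members, of which 96 were tested. In untreated knockout cells 33 were higher and 35 lower than in wild type, beside the 33.9% and 32.9% of all genes given above. The median log2 was 0.03 against 0.00 over all genes, and 12 of the 96 were called with at least a 2-fold difference, beside 1745 of 13085 over all genes. Under H2O2, 34 were higher and 31 lower, beside 33% and 32.4% of all tested genes. H2O2 itself called 0 of the 96 in either genotype by edgeR, DESeq2 or limma. By edgeR 6 in wild type and 10 in knockout had an unadjusted p under 0.05, against 6.47% and 7.96% of all genes.

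**Figure D5:**
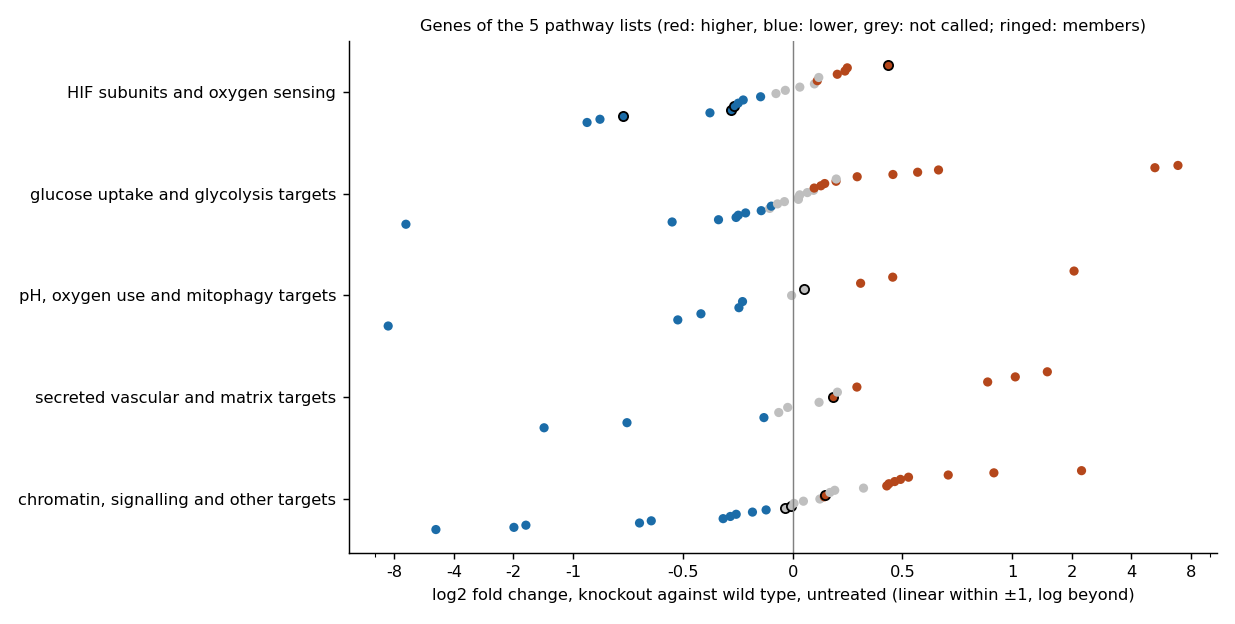
Log2 fold change of each tested gene of the 5 lists, knockout against wild type without treatment (red higher, blue lower, grey not called, members ringed). The axis is linear within ±1 and logarithmic beyond. Both directions occur in every list, with Slc2a3 at 6.89 and Slc16a3 at -7.00 in the glucose list.

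Among HIF subunits and oxygen-sensing genes, 5 were higher and 9 lower of 19 (median log2 -0.08), beside 33.9% and 32.9% of all tested genes. Os9, a lectin of endoplasmic reticulum quality control, fell: it averaged 299.8 ± 9.753 CPM in wild type and 156.6 ± 13.67 in the knockout (log2 -0.94, SE 0.0442, adjusted p 8.25e-17). The scaffold Cul2, part of the von Hippel-Lindau ligase, and the coactivator Ep300 fell (log2 -0.38 and -0.25). The ubiquitin ligases Siah2 and Siah1a, which act on hydroxylases of this family, rose by log2 0.25 and 0.24.

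Of 27 targets in glucose uptake and glycolysis, 10 were higher and 8 lower (median log2 0.03), beside 33.9% and 32.9% of all tested genes. The neuronal-type glucose transporter Slc2a3 was at 61.04, 58.39, 58.04 and 67.7 CPM in untreated knockout libraries. In wild type it was at 1.553 CPM in replicate 9 and at 0.3542, 0.06957 and 0.06378 in the others. The log2 fold change was 6.89 (SE 0.263, adjusted p 4.47e-11), and 8.52 (adjusted p 1.27e-25) without replicate 9. With 7 counts left in 3 wild-type libraries, the size of the second value is uncertain. Replicate 9 is the library with leukocyte transcripts, whose part in the Slc2a3 value was not tested. The lactate exporter Slc16a3 was at 33.35, 33.09, 27.34 and 33.1 CPM in untreated wild type and at 0.4595, 0.4107, 0 and 0.1335 in the knockout (log2 -7.00, SE 0.22, adjusted p 1.18e-16). H2O2-treated libraries of each genotype stood on the same side, at 60.22 to 63.74 CPM of Slc2a3 in the knockout and 31.56 to 37.86 CPM of Slc16a3 in wild type. The regulators and enzymes Pfkfb3 (log2 0.66) and Eno2 (log2 0.57) also rose, and Pgm2 (log2 -0.55) and the pyruvate dehydrogenase kinase Pdk3 (log2 -0.34) fell.

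Of 10 tested genes of pH control, oxygen use and mitophagy, 3 were higher and 5 lower (median log2 -0.12). Over all tested genes these shares were 33.9% and 32.9%. The mitophagy receptors Bnip3l, a close relative of Bnip3, and Fundc1 fell (log2 -0.23 and -0.52), as did the mitochondrial protease Lonp1 (log2 -0.42), while Bnip3 was not called. Mxi1, which antagonises MYC, rose by log2 0.46 and the mitochondrial protein gene Fam162a by 0.31. Carbonic anhydrase Car9, a common marker of hypoxia, stayed low, at 0.676 CPM in wild type and 2.84 CPM in the knockout (log2 2.05, adjusted p 1.16e-07). Car12, another carbonic anhydrase of this list, was also low and went the other way. It averaged 3.34 CPM in untreated wild type and 0 in the untreated knockout. With a knockout mean of 0, the fitted value (log2 -8.60, the lowest of the list) gives the direction but not a measured size. Car9 and Car12 were named after their values were seen.

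Secreted vascular and matrix genes were 5 higher and 3 lower of 12 tested (median log2 0.15), beside 33.9% and 32.9% of all tested genes. Flt1, a receptor of VEGF, rose: its mean was 67.04 ± 1.507 CPM in wild type and 190.3 ± 10.3 in the knockout (log2 1.50, SE 0.0439, adjusted p 1.14e-21). The collagen lysyl hydroxylase gene Plod1 (log2 0.89) rose too. The related lysyl hydroxylase Plod2 fell (log2 -0.75), as did the collagen prolyl hydroxylase subunit P4ha2, at 60.98 ± 7.17 CPM in wild type and 23.08 ± 0.8922 in the knockout (log2 -1.40, SE 0.0803, adjusted p 1.42e-12). Of the chromatin, signalling and other targets 10 were higher and 10 lower of 28 (median log2 0.09), beside the same shares of all genes. Selenbp1 (log2 2.24), the mTOR inhibitor Ddit4 (log2 0.92) and the transferrin receptor Tfrc (log2 0.71) rose, and the lipoprotein receptor Vldlr (log2 -1.73), haem oxygenase Hmox1 (log2 -0.70) and the repressor Bhlhe41 (log2 -0.64) fell.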

How the data were processed

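Polyadenylated RNA of 15 libraries was sequenced as read pairs after a stranded library preparation, per the labels' protocols. The submitters' processing notes name cutadapt, STAR and RSEM on build mm10, while versions, annotation and counting strand are not given in the sources used here. The authors deposited expected counts per gene symbol, all whole numbers, and RPKM, whose gene lengths are not given. No deposited column was left without a sample.

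Counts were tested with edgeR 4.0.16 (R 4.3.3, limma 3.58.1). Genes were kept with filterByExpr (13085 of 55341, holding 99.917% of counts), TMM factors set the library sizes, and the robust quasi-likelihood fit over 4 groups (11 residual degrees of freedom) gave 5 contrasts. A gene was called at a p under 0.05 after Benjamini-Hochberg adjustment over the 13085. SE and 95% intervals are approximate, from the fold change and its F statistic. Replicates differed beyond counting error (chi-square per degree of freedom 2.07 to 8.12 over 21 pairs), so none was merged. Alternatives were other scalings and filters, DESeq2 1.42.0, limma on log2(RPKM + 1), fits of the compared groups alone and leaving out each replicate.

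The members and lists were chosen with earlier results of these data known. All members are named. From each pathway list up to 3 called genes each way are named, by log2 fold change in the untreated genotype comparison, requiring a mean of 5 CPM or more in one genotype and replicates that do not overlap. Of these, 1 gene is not reported here. Gene positions and exon lengths are from GENCODE M21 (mm10), promoters from RefSeq (GRCm38.p6).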

Additional observations from a re-analysis of the deposited data

Results flagged for a closer look

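Of 27 sets of 4 libraries (9 members in 3 groups), 2 held a library far from the other 3, and chance flags about 5% of such sets. Epas1 was at 17.69 CPM in untreated knockout replicate 4, against 11.95 to 12.6 in the others. Egln1 was at 137.7 CPM in untreated wild-type replicate 9, against 118.7 to 120.6. Replicate 9 is the library with blood-cell transcripts, whose part in the Egln1 value was not tested. The treated knockout group, with 3 libraries, was not examined in this way.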

How the results depend on the processing

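No paired analysis was possible because the groups share no replicate numbers. The count of members called higher without treatment was 3 under every alternative run. Leaving out 1 library gave 2 to 3 members lower without treatment, and under H2O2 1 to 3 lower and 3 to 5 higher (1 lower and 5 higher without knockout replicate 7, which leaves 2 treated knockout libraries). Pathway counts ranged over these fits from 33 to 38 higher and 32 to 35 lower without treatment, and from 31 to 36 higher and 24 to 32 lower under H2O2. Over all genes, leaving out 1 library gave 4222 to 4409 higher and 4121 to 4273 lower without treatment. Under H2O2 it gave 4017 to 4202 higher and 3948 to 4106 lower, with 13020 to 13285 genes tested. Counts for H2O2 and for the interaction were 0 among members and pathway genes in every alternative run. No called value of a member or named gene changed sign. Values that were not called and lay near 0 did, such as Ankrd37 without treatment (log2 -0.04, and 0.11 without knockout replicate 2) and Egln3 under H2O2 in knockout cells (log2 -0.02, and 0.06 without treated replicate 7). Over all genes, H2O2 calls did vary with the tool: in knockout cells edgeR called 0 higher and 7 lower, DESeq2 22 and 39, and edgeR with no low-count filter 7 and 20. In wild-type cells these counts were 1 and 1, 3 and 5, and 4 and 8, and for the interaction 0 and 0, 4 and 13, and 1 and 4. With limma on RPKM they were 0 and 3 in knockout cells and 0 elsewhere. Depth limits Adm. Spread between replicates limits genotype differences as small as that of Epas1, with or without H2O2, and those of Bnip3 and Egln1 under H2O2.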
